A study of Mus musculus with 6 samples.

Results

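The 10 genes described here encode proteins of mesenchymal and contractile cells: Fn1, Sparc, Postn, Mmp2, Mmp14, Lox, Acta2, Tagln, Pdgfrb and Thy1. They were found by gene symbol, and all 10 were among the 20325 genes listed for each library. All 10 were also among the 13460 genes that passed the filter on low counts. The libraries hold RNA of mouse neural stem cells at day 7 of induced reprogramming, from animals of mixed 129/Black 6 strain at postnatal day 4. Nanog+E-cadherin+ cells (n = 3) and Nanog+E-cadherin- cells (n = 3) were sorted from these cultures after fixation and antibody staining. Both groups carried the same alleles, a doxycycline-inducible Oct4, Sox2, c-Myc and Klf4 cassette (Stemcca) in the ColA1 locus on both chromosomes and 1 copy of the reverse tetracycline transcriptional activator in Rosa26, and both received doxycycline. No cells without doxycycline and no unsorted cells were analysed here, so the comparison is between populations that both express Nanog protein. The labels do not say whether replicates came from separate cultures or animals.

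Mesenchymal cells build and remodel a collagen- and fibronectin-rich matrix, and many of them pull on it through bundles of actin that contain smooth muscle actin. When fibroblasts are reprogrammed, this programme is shut down while E-cadherin and other epithelial genes come on, a mesenchymal-to-epithelial transition. Neural stem cells start without E-cadherin, and how far the same genes follow E-cadherin in cells of neural origin is the question these sorted populations can address.

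Acta2 and Tagln are textbook targets of serum response factor (SRF), which binds a short A/T-rich element, the CArG box, in the promoters of contractile genes. Promoter sequences are shown for Acta2 and Myl9, the genes of the members and the contractile list in which 2 such elements were found, so they do not stand for the rest. Of the 10 members, 4 (Acta2, Mmp14, Postn and Sparc) had an entry among the RefSeq promoter sequences (GRCm38.p6), each covering 250 bases before to 50 after a gene start. The search took as CArG-like CC, then 6 bases of which at least 5 are A or T, then GG, a pattern that reads alike on both strands. Acta2 had 2 such elements, starting 84 and 34 bases before the start (chr19:34255374-34255503, minus strand, bases -130 to -1 shown). Myl9, a myosin light chain gene of the contractile list named after its values were seen, is shown beside it and also had 2, starting 161 and 99 bases before the start (chr2:156775274-156775403, plus strand, bases -190 to -61 shown). Capitals mark the elements.
Acta2: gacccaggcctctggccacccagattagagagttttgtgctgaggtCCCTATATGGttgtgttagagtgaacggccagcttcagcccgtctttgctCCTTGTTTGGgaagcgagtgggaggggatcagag
Myl9: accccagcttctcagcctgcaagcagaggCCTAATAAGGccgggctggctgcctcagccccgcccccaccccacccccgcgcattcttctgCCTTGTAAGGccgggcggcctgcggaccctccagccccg
Mmp14 had 1 element, and Postn and Sparc had none in these windows. Of all 32851 promoters in the table, 9.98% held at least 1 such element and 0.822% held 2 or more. Of the 24 promoters matched to the contractile list described below, 4 held at least 1, those of Myl9, Cnn2, Vcl and Myl6. Of these 4 genes, Myl9, Cnn2 and Vcl passed by replicate number and Myl6, with a match in 1 of its 2 promoters, did not. Of the whole list 11 of 22 passed, among them Lmod1 and Cnn1, which had no match. Whether matches go with the differences by number was not tested. A match is a string of letters and says nothing of whether SRF was bound.

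Total expected counts per library lay between 8851110 and 39630916. Levels are given as CPM, counts relative to library totals scaled by TMM, and are compared between genes as TPM, the share of transcripts once length is allowed for. Cdh1, which encodes E-cadherin, followed the sort, with 104.1 to 142.6 CPM in Nanog+E-cadherin+ libraries and 15.4 to 20.3 CPM in Nanog+E-cadherin- libraries. In the Nanog+E-cadherin- libraries numbered 2 and 3, 0.0878% and 0.0585% of counts fell on 1119 olfactory receptor genes, which are not known for a role in these cells, against 0.00195% in the one numbered 1 and 0.00189% to 0.00930% in Nanog+E-cadherin+ libraries.

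With group as the only term, edgeR's test called 0 of the 10 mesenchymal and contractile genes between the sorted populations, and 0 of all 13460 genes tested. The 10 differed between replicate numbers within both populations. In the mean over all 6 libraries Acta2 was the most abundant of the 10 at 511.5 TPM, followed by Sparc at 399, Tagln at 298, Thy1 at 236, Fn1 at 201, Mmp14 at 116.5 and Mmp2 at 63.6 TPM. Pdgfrb, Lox and Postn were rare, at 7.67, 6.24 and 3.55 TPM. That order held poorly in single libraries: Acta2 ran from 44.3 to 815 TPM, Sparc from 29.4 to 684, Tagln from 17.6 to 562, Thy1 from 97.4 to 350 and Fn1 from 68.3 to 318 TPM, so the 5 most abundant members overlapped across libraries. In both libraries numbered 1 Thy1 and Fn1 had higher TPM than Acta2, while in the other 4 libraries Acta2 had the highest TPM of all 10.

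**Figure D1:**
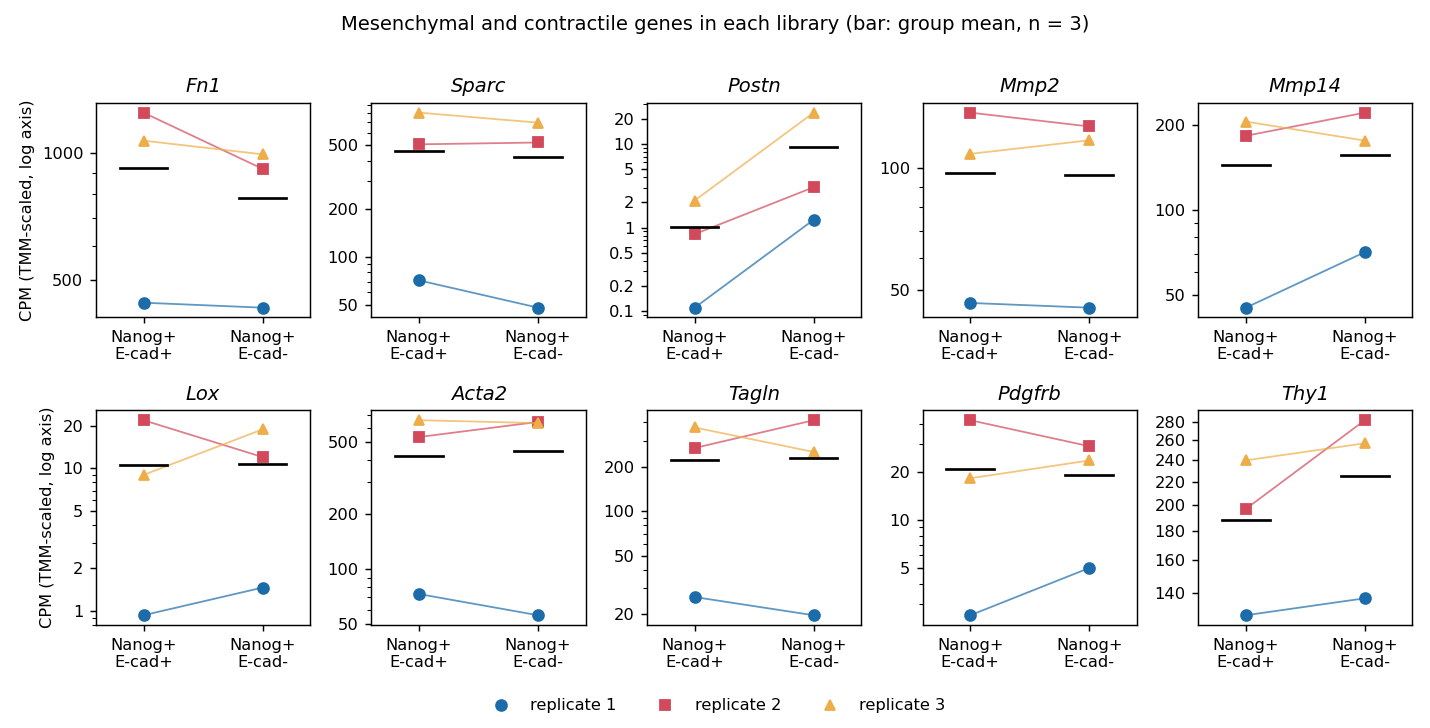
Level of each gene in CPM (log axis) in the 3 Nanog+E-cadherin+ libraries (left of each panel) and the 3 Nanog+E-cadherin- libraries (right), with a line joining libraries of the same replicate number and a black bar at the group mean. The libraries numbered 1 sit lowest within both populations for all 10 genes, and the lines of Postn and Thy1 all slope up toward Nanog+E-cadherin- cells, those of Fn1 all slope down, and those of the other genes go both ways.

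Among the matrix proteins, Fn1 encodes fibronectin, the glycoprotein that links integrins to the surrounding matrix. Fn1 stood at 440.8, 1250 and 1072 CPM in Nanog+E-cadherin+ replicates 1 to 3, against 428.9, 918.5 and 994.6 CPM in Nanog+E-cadherin- replicates 1 to 3. The groups overlapped, and the low libraries were the 2 numbered 1. Sparc encodes a secreted glycoprotein that binds collagen. Sparc stood at 71.3, 507 and 801 CPM in Nanog+E-cadherin+ replicates 1 to 3, against 48.1, 521 and 693 CPM in Nanog+E-cadherin- replicates 1 to 3, again overlapping, with both libraries numbered 1 far below the rest.

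Postn encodes periostin, a secreted matrix protein made by activated fibroblasts that binds fibronectin and collagen, and it was the one member with a sizeable difference between the populations. It stood at 0.110, 0.832 and 2.10 CPM in Nanog+E-cadherin+ replicates 1 to 3, against 1.24, 3.03 and 23.6 CPM in Nanog+E-cadherin- replicates 1 to 3. Nanog+E-cadherin- cells were higher in 3 of 3 pairs of libraries with the same number, by 11.2-fold, 3.64-fold and 11.2-fold, although the groups overlapped. The values are low: they rest on 2, 11 and 42 counts in Nanog+E-cadherin+ libraries and 44, 35 and 225 counts in Nanog+E-cadherin- libraries. In the pair numbered 1 the ratio of 11.2 had a 95% exact interval of 2.93 to 95.7, which covers counting error only. In edgeR's quasi-likelihood test the log2 fold change was -3.17 ± 1.37 (SE), with an unadjusted p of 0.0521 and an adjusted p of 1. Blocking on replicate number gave -2.90 ± 0.64 (SE), with an unadjusted p of 0.00161 and an adjusted p of 0.170 over all genes, so Postn did not pass in either edgeR fit. DESeq2 with the same block did call it (adjusted p = 0.00314). Without Nanog+E-cadherin- replicate 3, which held 225 of the counts, the group-only log2 fold change was -1.04 ± 1.17 (SE). Without both Nanog+E-cadherin- replicates 2 and 3, which had the higher olfactory receptor shares, it was -0.28 ± 1.46 (SE). That last fit leaves replicate 1, the lowest for Postn in its group, as the only Nanog+E-cadherin- library. With the block, the log2 fold change was -2.725 ± 0.83 (SE) without the pair numbered 1 and -3.46 ± 0.83 without that numbered 2. Without the pair numbered 3 it was -2.48 ± 1.04 (SE). The part of the olfactory receptor signal in the Postn difference was not tested.

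Of the matrix-modifying enzymes, Mmp14 is a membrane-bound metalloproteinase that cleaves collagen and activates Mmp2, a secreted gelatinase. Mmp14 stood at 45.0, 182.5 and 204.9 CPM in Nanog+E-cadherin+ replicates 1 to 3, against 70.8, 220.4 and 175.5 CPM in Nanog+E-cadherin- replicates 1 to 3. Mmp2 stood at 46.4, 137.1 and 108.4 CPM in Nanog+E-cadherin+ replicates 1 to 3, against 45.1, 126.7 and 117.1 CPM in Nanog+E-cadherin- replicates 1 to 3. Both enzymes overlapped between the groups and were lowest in the libraries numbered 1. Lox, the lysyl oxidase that crosslinks collagen and elastin, was rarer and more variable, at 0.936, 21.8 and 9.01 CPM in Nanog+E-cadherin+ replicates 1 to 3, against 1.46, 12.0 and 18.8 CPM in Nanog+E-cadherin- replicates 1 to 3. Its sign differed between pairs, with a log2 ratio of -0.59 in the pair numbered 1, 0.85 in that numbered 2 and -1.05 in that numbered 3.

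The contractile pair ranged widely between libraries, as did Sparc. Acta2, smooth muscle actin, stood at 73.0, 532.5 and 658.7 CPM in Nanog+E-cadherin+ replicates 1 to 3, against 55.8, 644.7 and 635.0 CPM in Nanog+E-cadherin- replicates 1 to 3. Tagln encodes transgelin, an actin-bundling protein of smooth muscle, and stood at 26.2, 267.5 and 368.1 CPM in Nanog+E-cadherin+ replicates 1 to 3, against 19.7, 412.4 and 251.4 CPM in Nanog+E-cadherin- replicates 1 to 3. Both genes overlapped between the groups, and in each the 4 libraries numbered 2 or 3 were well above the 2 numbered 1. Acta2 belongs to a family of near-identical actins, so reads could be divided among its copies. Of its 1986 stretches of 50 bases in the matching GENCODE M21 transcript, 0.352% occurred exactly in a transcript of another gene, as did 0.433% of the 2539 of Mmp14, and none did for Fn1, Thy1, Tagln, Postn, Pdgfrb, Mmp2, Lox and Sparc. Stretches that match with a mismatch were not counted, so these shares do not show how reads were divided.

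Of the surface proteins, Pdgfrb is a receptor tyrosine kinase for platelet-derived growth factor on pericytes and other mesenchymal cells. It stood at 2.53, 42.2 and 18.3 CPM in Nanog+E-cadherin+ replicates 1 to 3, against 5.01, 29.0 and 23.6 CPM in Nanog+E-cadherin- replicates 1 to 3. Thy1 is a lipid-anchored surface protein of fibroblasts that mouse neurons also carry. It stood at 128.2, 197.0 and 239.7 CPM in Nanog+E-cadherin+ replicates 1 to 3, against 137.3, 281.9 and 256.8 CPM in Nanog+E-cadherin- replicates 1 to 3. Thy1 was lower in Nanog+E-cadherin+ cells in 3 of 3 pairs, with log2 ratios of -0.10, -0.52 and -0.10, yet the groups overlapped and it had the narrowest range of the 10 between replicate numbers.

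With group as the only term, edgeR's quasi-likelihood test called 0 of the 10 members and 0 of the 13460 genes (0%) at an adjusted p under 0.05. At an unadjusted p under 0.05 it gave 0 of 10 members, against 359 of all genes (2.67%). Limma-voom also called 0 genes, and DESeq2's Wald test called 21, none of them a member. DESeq2 gave no adjusted p for Postn, Pdgfrb and Lox, so it could not call them. Blocking on replicate number, edgeR's test called 41 genes (0.305%) and again 0 members. At an unadjusted p under 0.05 it then gave 1 member, Postn, against 10.7% of all genes, or 5.19% counting only lower genes. The groups overlapped for all 10 members, while 6.99% of all genes did not overlap in one direction or the other. Exact two-sided permutation tests of log2 CPM gave p between 0.2 for Postn and 0.9 for Tagln and Mmp2, where 0.1 is the smallest value that 3 libraries against 3 allow. The median log2 fold change over the members was -0.03 with group only and -0.11 with the block, beside -0.01 and 0.02 over all genes tested. In the pairs numbered 1 to 3 it was -0.03, -0.16 and -0.02. Fn1 was higher in all 3 pairs, Thy1 and Postn were lower in all 3, and the other 7 changed sign between pairs. Over all genes 18.9% were higher and 17.3% lower in all 3 pairs.

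**Figure D2:**
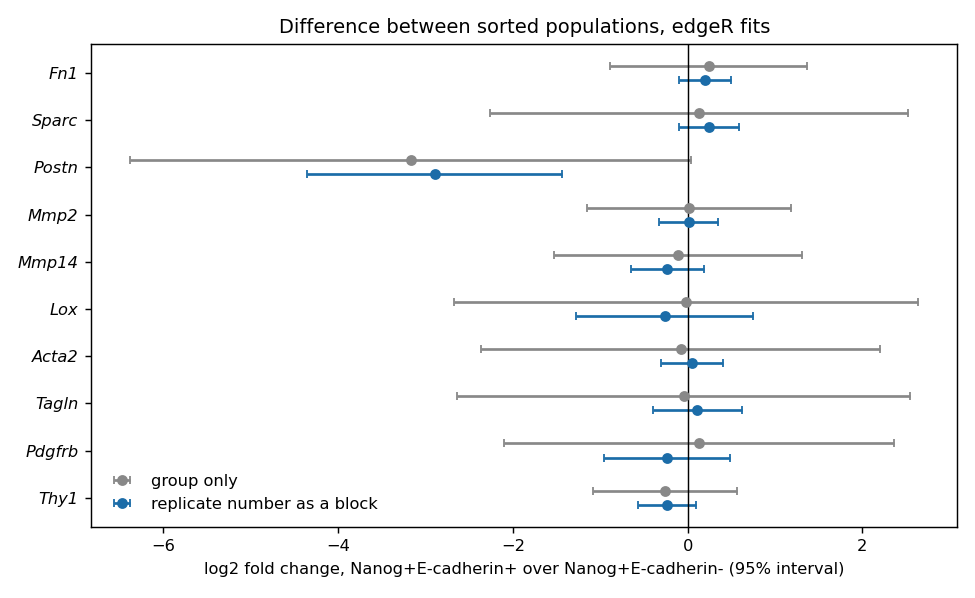
Log2 fold change of each gene, Nanog+E-cadherin+ over Nanog+E-cadherin-, with 95% intervals from edgeR fits with group only (grey) and with a replicate-number block (blue). Every group-only interval includes 0. With the block the 9 genes other than Postn lie between -0.26 and 0.24 with intervals that include 0, while the interval of Postn runs from -4.36 to -1.43.

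The SE of the log2 fold change of the 9 other members was 0.131 to 0.446 with the block, against 0.352 to 1.135 without it. The 95% interval of the fold change, Nanog+E-cadherin+ over Nanog+E-cadherin-, ran from 0.932 to 1.41 for Fn1, from 0.934 to 1.501 for Sparc, from 0.799 to 1.27 for Mmp2 and from 0.638 to 1.14 for Mmp14. It ran from 0.812 to 1.32 for Acta2, from 0.757 to 1.54 for Tagln and from 0.672 to 1.07 for Thy1. For the rare genes it was wider, reaching down to 0.514 for Pdgfrb and running from 0.412 to 1.68 for Lox. For Postn, which did not pass, it ran from 0.0487 to 0.370. Cdh1 in the same fit was 7.335-fold higher (log2 fold change 2.87, adjusted p = 0.00177), above all of these intervals. In edgeR's test with group only, Cdh1 itself did not pass (adjusted p = 0.0608). That test thus missed the gene the sort was made on. Differences within the members' intervals were not excluded with 3 pairs.

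The same genes differed strongly by replicate number. In edgeR's F test of the replicate number, with group in the model, all 10 members passed (adjusted p from 0.000192 for Sparc to 0.0147 for Thy1), against 22.2% of all genes tested. All 10 were higher in the libraries numbered 2 and in those numbered 3 than in those numbered 1, and 10.7% of all genes passed with that direction. For 9 of the 10, the exception being Postn, each of the 4 libraries numbered 2 or 3 was above both libraries numbered 1, as was so for 25.2% of all genes. Each number holds 1 library of each population, and the F test is set against the spread left between these paired libraries. Its p-values do not measure spread between independent cultures or animals. The numbers come from the labels, and what a number stands for (a culture, an animal or a day) is not given there. In bulk libraries like these, more cells of a type and more RNA per cell cannot be told apart.

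Tagln and Lox rose most among the members in the libraries numbered 2. Over those numbered 1, Tagln was 15.02-fold, Lox 14.5-fold, Pdgfrb 9.69-fold, Acta2 9.18-fold and Sparc 8.76-fold higher (adjusted p from 0.000308 to 0.00391 in edgeR's test). The other called rises were smaller, at 3.51-fold for Mmp14, 2.88-fold for Mmp2, 2.47-fold for Fn1 and 1.78-fold for Thy1, while Postn, at 3.86-fold, did not pass (adjusted p = 0.127). In the libraries numbered 3, over those numbered 1, all 10 passed, with Postn 17.5-fold, Tagln 13.5-fold, Sparc 12.6-fold, Lox 11.2-fold, Acta2 10.1-fold and Pdgfrb 5.55-fold higher and Mmp14, Mmp2, Fn1 and Thy1 between 3.36-fold and 1.87-fold higher. Between the libraries numbered 3 and 2 none of the 10 passed, where 0.520% of all genes did, against 18.0% for the numbers 2 over 1 and 26.4% for 3 over 1. These pairwise contrasts were added after the data were seen.

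The rises between numbers appeared in each population alone. For Acta2 the libraries numbered 2 and 3 were 7.29-fold and 9.02-fold above the one numbered 1 in Nanog+E-cadherin+ cells, and 11.6-fold and 11.4-fold above it in Nanog+E-cadherin- cells. Tagln was 10.2-fold and 14.0-fold above in Nanog+E-cadherin+ cells and 20.9-fold and 12.7-fold above in Nanog+E-cadherin- cells. The olfactory receptor share was also higher in the libraries numbered 2 and 3 in both populations, at 0.00930% and 0.00499% against 0.00189% within Nanog+E-cadherin+ cells, and its part in the result was not tested. The members differed in where they stood among all genes: 2.38% of all genes had a larger absolute log2 difference than Tagln between the numbers 3 and 1, 2.58% than Sparc and 3.25% than Acta2, but 12.6% than Mmp14, 20.6% than Mmp2, 22.1% than Fn1 and 35.3% than Thy1. Postn (1.67%), Lox (3.01%) and Pdgfrb (6.68%) lay with the first 3.

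**Figure D3:**
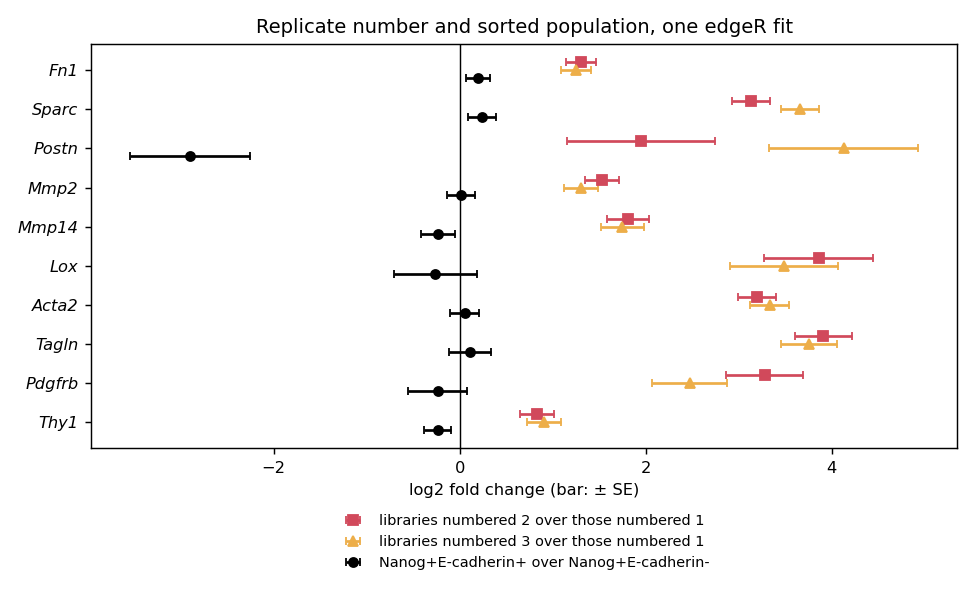
Log2 fold changes ± SE from the edgeR fit with both terms, for libraries numbered 2 over 1 (red squares), numbered 3 over 1 (yellow triangles) and Nanog+E-cadherin+ over Nanog+E-cadherin- (black circles). For every gene but Postn both replicate-number values lie further from 0 than the population value, from 0.83 for Thy1 to 3.91 for Tagln.

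The size of the replicate-number difference depends on the scaling. Relative to TMM, where the median over all genes was 0.04 and -0.01 for the numbers 2 and 3 over 1, scaling by library totals moved that median to 0.32 and 0.24, and log2(TPM + 1) moved it to 0.61 and 0.54. Taken relative to the median of all genes, the members' median log2 difference was 2.44 and 2.93 with TMM, 2.44 and 2.94 with library totals, 2.44 and 2.94 with DESeq2 size factors, and 2.05 and 1.80 with TPM. All 10 members were above the libraries numbered 1, within both populations, under each of these scalings.

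Markers of other cell types moved with the replicate number as well, and their part in the result was not tested. The 6 fibroblast markers summed to 224 to 1152 TPM in the libraries numbered 2 or 3, against 58.6 TPM in Nanog+E-cadherin+ replicate 1 and 90.8 TPM in Nanog+E-cadherin- replicate 1, and 3 of the 6 passed, all higher (Col1a2, Col3a1 and Col1a1). The 6 vascular smooth muscle markers summed to 221 to 355 TPM, against 47.7 and 37.3 TPM in those 2 libraries, with 3 of 6 higher (Cnn1, Lmod1 and Actg2). Actg2 alone held 122.8 to 265.6 TPM of these sums, against 20.4 and 16.6 TPM. Des, of the same list, was fitted lower, at 0.251-fold and 0.217-fold for the numbers 2 and 3 over 1, and did not pass. Myh11, the myosin that defines mature smooth muscle, stayed at or below 3.20 CPM in every library. Of the 7 endothelial markers 4 were tested and 2 were higher, Tek and Kdr, and the sum was 16.8 to 25.9 TPM against 4.6 and 2.8 TPM. The marker genes named here and in the next paragraph were chosen after their values were seen. Of 10 pericyte markers 6 were tested, with 2 higher, Cspg4 and Notch3, and 1 lower, Ndufa4l2. The 10 summed to 154.8 to 187 TPM against 214.5 and 366.5 TPM, of which Ndufa4l2 made up 147.9 and 289.1 TPM. Without Ndufa4l2, a sum taken after the data were seen, they came to 153.4 to 186.3 TPM against 66.6 and 77.4 TPM. The direction of the sum thus turned to higher once a marker that went the other way was dropped. Vtn was also fitted lower, by log2 differences of -1.46 and -5.18 for the numbers 2 and 3 over 1, without passing the F test. Mcam, the most abundant of the list, did not pass either. The defining pericyte markers Rgs5 and Higd1b were at 0 in all 6 libraries. Between the populations, with the block, 4 of the 6 fibroblast markers were fitted lower in Nanog+E-cadherin+ cells and 2 higher (median log2 fold change -0.88). Of the 6 vascular smooth muscle markers 4 were fitted higher and 2 lower (median 0.15), and 0 of either list passed.

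Neural lists also shifted with the number. The 6 neural stem cell markers summed to 287 to 611 TPM in the libraries numbered 2 or 3, against 78.4 TPM in Nanog+E-cadherin+ replicate 1 and 85.4 TPM in Nanog+E-cadherin- replicate 1, and 5 of 6 were higher, among them Fabp7, Sox1 and Nes. The 4 astrocyte markers summed to 228 to 588 TPM against 29.0 and 14.8 TPM, with 3 of 4 higher, namely Gfap, the astrocyte intermediate filament, Aldh1l1 and Aqp4. The 6 neuron markers went the other way, summing to 135 to 429 TPM against 592 and 831 TPM, and 3 of 6 were lower, namely Tubb3, Stmn2 and Syp. Tubb3, a neuronal tubulin, was also the one gene of all these lists called between the populations, lower in Nanog+E-cadherin+ cells with the block, by a log2 fold change of -1.27 with an SE of 0.17 (edgeR, adjusted p = 0.0370). It stood at 342.4, 78.5 and 31.1 CPM in Nanog+E-cadherin+ replicates 1 to 3, against 631.6, 248.8 and 75.5 CPM in Nanog+E-cadherin- replicates 1 to 3. Of 6 microglia and blood markers 1, Cd68, was tested and it did not pass. Thy1, which neurons carry too, was higher in the libraries numbered 2 and 3, where the neuron sums were lower. Between the populations both went the same way, since 5 of the 6 neuron markers were fitted lower in Nanog+E-cadherin+ cells with the block (median log2 fold change -1.23), as Thy1 was (-0.24). The part of neuronal RNA in the Thy1 values was not tested.

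Among the other contractile and actin-binding genes, those that passed by replicate number were all higher where Acta2 and Tagln were. Of 22 tested, 0 passed between the populations in either fit, with 11 fitted higher and 11 lower and a median log2 fold change of 0.00. By replicate number 11 of 22 passed, all higher in the libraries numbered 2 and 3. Tpm1, an abundant tropomyosin, was among them, at 548.5 to 660.1 CPM in the libraries numbered 2 or 3 against 276.6 and 237.2 CPM in those numbered 1. The more abundant myosin light chain Myl6 (201.4 to 292.7 CPM in all 6 libraries) and the calponin Cnn3 did not pass. Some that did not pass had wide fitted differences, such as Des, the muscle intermediate filament, at 0.251-fold and 0.217-fold for the numbers 2 and 3 over 1, and Myh11 at 19.2-fold and 3.52-fold (both named after their values were seen). Myl9, whose promoter elements are shown above, stood at 2.97, 38.2 and 106.5 CPM in Nanog+E-cadherin+ replicates 1 to 3, against 2.87, 67.5 and 75.0 CPM in Nanog+E-cadherin- replicates 1 to 3. Its log2 differences were 4.17 and 4.97 for the numbers 2 and 3 over 1.

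The actin and transgelin paralogs did not move as a group. Actg2, the enteric smooth muscle actin, was higher in the libraries numbered 2 and 3, by 2.95 and 2.25 on the log2 scale. The cytoplasmic actin Actb and Tagln2 were lower in CPM, with log2 differences of -0.56 and -0.56 for Actb and -0.53 and -0.73 for Tagln2, a direction that was mixed in TPM, where the ratios over the libraries numbered 1 ran from 0.940 to 1.19 for Actb and from 0.919 to 1.15 for Tagln2. Actg1, the most abundant of them at 2107 TPM on average, did not pass. None of the 7 passed between the populations. Among SRF and YAP regulators and targets, 11 of 13 were tested, 0 passed between the populations and 6 passed by number, 4 of them higher and 1 lower in both. Cyr61, a matricellular YAP target, was higher by 0.75 and 0.71, Tead2, a DNA-binding partner of YAP, passed with log2 differences of -0.18 and -0.98, and Yap1 did not pass. Srf itself stood at 138.1 to 188.6 CPM in Nanog+E-cadherin+ libraries and 97.3 to 205.4 CPM in Nanog+E-cadherin- libraries. It did not pass between the populations or in the F test of the replicate number (adjusted p = 0.0554). Its log2 differences were -0.64 and -0.71 for the numbers 2 and 3 over 1, opposite in sign to those of Acta2 and Tagln. In edgeR's pairwise contrasts 3 over 1 passed (adjusted p = 0.0359) and 2 over 1 did not (adjusted p = 0.0662). In TPM the libraries numbered 2 and 3 lay above that numbered 1 in Nanog+E-cadherin+ cells and below it in Nanog+E-cadherin- cells.

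Many genes that act on the same matrix also differed by replicate number. Of 24 crosslinking and matricellular genes, 0 passed between the populations, with 9 fitted higher and 15 lower, and 18 passed by number, 15 of them higher in both the libraries numbered 2 and 3. Bmp1, the proteinase that matures fibrillar collagen and Lox, was higher by 1.66 and 1.54 on the log2 scale, while Fbln2 (-0.05 and 0.84) and Smoc1 (0.21 and -1.09) passed with opposite signs. Thbs1 and Tnc, matricellular proteins named after their values were seen, were higher by 3.73 and 4.32 and by 3.54 and 4.36. Of 21 metalloproteinases and inhibitors 15 were tested, 0 passed between the populations, and 6 passed by number, 5 of them higher. Timp2, an inhibitor that also takes part in Mmp2 activation, was higher by 2.44 and 3.70, Timp1 was lower, with differences of -0.90 and -0.93, and Mmp11 did not pass. Mmp7 and Mmp8 were at 0 in all 6 libraries.

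Receptors followed in part. Of 8 fibronectin receptors and adhesion partners, 0 passed between the populations and 6 passed by number, all higher, among them the integrin chain Itgb1 (0.69 and 1.10) and the syndecan Sdc4 (0.80 and 1.74), while the kinase-like adaptor Ilk did not pass. Of 5 PDGF ligands and receptors 4 were tested, and Pdgfb, the main ligand of Pdgfrb, was higher by 1.997 and 3.75 and Pdgfc by 1.88 and 2.64, while Pdgfa did not pass. Of 14 other mesenchymal state genes 0 passed between the populations and 6 by number, 4 of them higher in both. Vim, the intermediate filament of mesenchymal and neural stem cells alike, was higher by 0.82 and 1.33, S100a6 passed with opposite signs (-1.06 and 0.14) and Anxa2 did not pass.

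**Figure D4:**
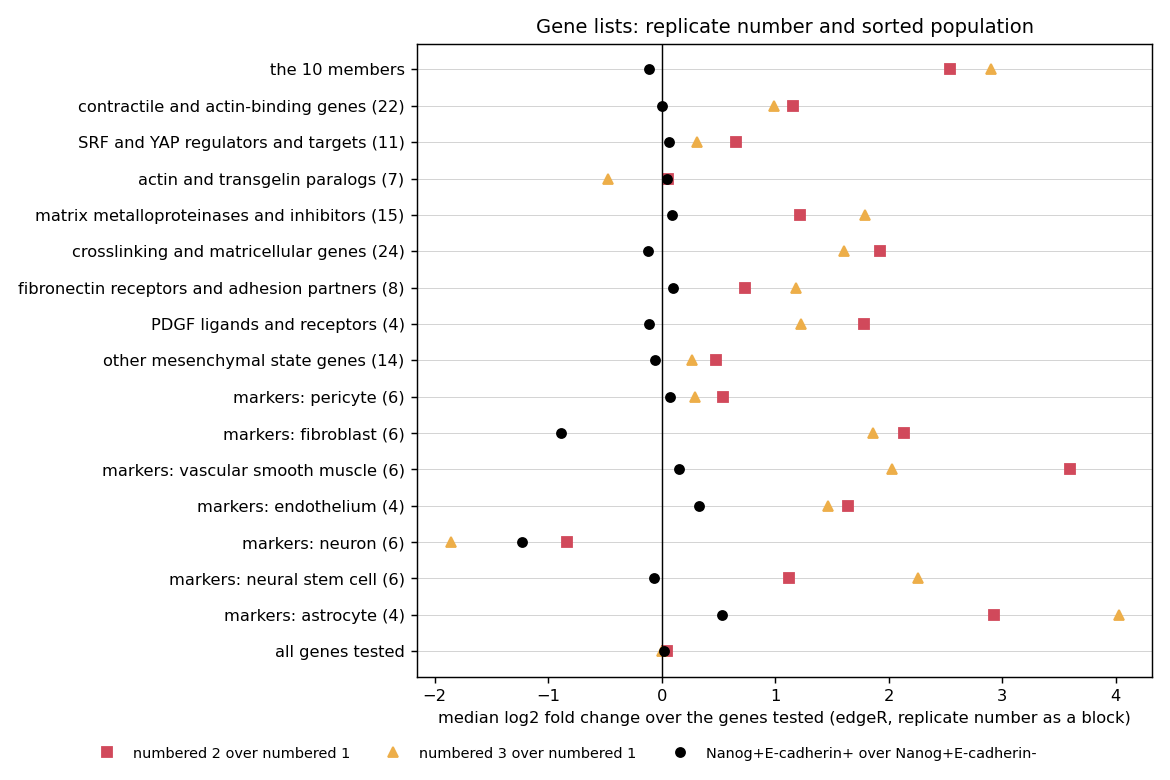
Median log2 fold change over the tested genes of each list (number tested in brackets), for libraries numbered 2 over 1 (red squares), numbered 3 over 1 (yellow triangles) and Nanog+E-cadherin+ over Nanog+E-cadherin- (black circles), all from the edgeR fit that blocks on replicate number. The 10 members lie at 2.54 and 2.90 by number and at -0.11 between the populations, and the medians of all genes tested lie near 0.

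The genes whose levels ran most like each member's were found by the root mean square difference between mean-centred log2 CPM over the 6 libraries, among 11086 other genes with a mean of at least 5 CPM. The closest of so many genes is near by selection and no background distance was taken, so any link between the genes named was not tested. Closest to Fn1 was the laminin chain Lamc1 (0.0768, then Gsdmd at 0.0933), and closest to Thy1 was Zeb1, a transcriptional repressor of Cdh1 (0.0451, then 4922501C03Rik at 0.0691). Acta2 and Sparc shared their closest gene, Lbp (0.0777 and 0.175). Lox had Cacna1e (0.356) and its own relative Loxl1 (0.369), and Pdgfrb had the microfibril-associated Mfap4 (0.306) and Gm1060 (0.391). Mmp2 was nearest to Rbms1 (0.0960) and Col9a3 (0.112), Mmp14 to Nr2c2 (0.0767) and Igdcc4 (0.0958) and Tagln to Sprr2b (0.189) and Akr1c14 (0.225). Postn had no close match, with Slc41a2 at 0.817 and Adrbk2 at 0.887. Within the 10, Acta2 lay nearest to Sparc (0.198), Fn1 to Mmp2 (0.149) and Pdgfrb to Lox (0.422).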

How the data were processed

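The 6 libraries came from fixed, sorted cells, 3 per population, and their groups and replicate numbers were taken from the labels' titles. The authors deposited expected counts and TPM, made with RSEM 1.2.4 and Bowtie on the build mm9, per the submitters' processing notes. Strand use is not given in the sources used here. Deposited FPKM were not used. Expected counts were rounded before testing, and TPM served for levels between genes, marker sums and alternatives. Coordinates printed are those of the RefSeq tables (GRCm38.p6), not of the files' build.

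The main test was edgeR's quasi-likelihood test (edgeR 4.0.16, R 4.3.3) with group as the only term, TMM scaling and Benjamini-Hochberg adjustment. Genes were kept by filterByExpr with a lowest count of 10 and a lowest total of 15. The replicate number was tested with group in the model. For edgeR fits, each SE was back-calculated as the absolute log2 fold change divided by the square root of the F statistic. The 95% intervals of log2 and fold changes were made from that SE with a t quantile. Alternatives used limma 3.58.1 and DESeq2 1.42.0, other scalings, no filter, and libraries left out. The steps were tested on simulated data. The members and lists were chosen with earlier results of these data known. Named genes are the members, the genes of each list called between the populations or otherwise up to 3 of highest mean TPM, and the 2 nearest genes of each member, where the second of Acta2 and of Sparc is not reported here; others are said to be chosen after their values were seen.

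Same-numbered libraries deviated together (correlations across genes of 0.75, 0.41 and 0.48, each above the limit of 0.1, with other pairs at -0.62 to 0.12). The numbers were therefore taken to pair the samples, on these values and not on a label. The p-values reflect spread among these libraries, which may be technical.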

Additional observations from a re-analysis of the deposited data

How the results depend on the processing

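With the replicate block, 41 genes were called between the populations, against 0 with group only. The count was 35 with the block and library totals, 304 with the block in DESeq2, and 182, 140 and 449 with the block after leaving out the pair numbered 1, 2 and 3. It was 21 in DESeq2 with group only and 1 without the count filter. The members called numbered 1, Postn, with the block in DESeq2 (-2.91 ± 0.69 (SE), adjusted p = 0.00314) and with the block without the pair numbered 2 (-3.46 ± 0.83, adjusted p = 0.00490), and 0 in the other fits. DESeq2 with group only gave Postn, Pdgfrb and Lox no adjusted p. Over the other alternatives the adjusted p of Postn ran from 0.00314 to 1.

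The members' median log2 fold change, -0.03 with group only, was -0.109 with the replicate block, -0.142 with the block and library totals, -0.129 with log2(TPM + 1) with or without the filter and -0.2082 with log2(TPM + 0.1), while limma-voom turned its sign, to 0.03. Leaving out 1 library at a time it ran from -0.478 (Nanog+E-cadherin- replicate 1 left out) to 0.4587 (Nanog+E-cadherin+ replicate 1 left out). With Nanog+E-cadherin- replicates 2 and 3 left out together it was 1.58. That setting, added after the data were seen, leaves the low replicate 1 as the only Nanog+E-cadherin- library, whose spread is then taken from the other group.

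Signs of uncalled log2 fold changes near 0 turned as follows. Tagln was 0.03946 in limma-voom, 0.005269 with log2(TPM + 1) with or without the filter and 0.00959 with log2(TPM + 0.1). In the same TPM settings Pdgfrb was -0.1723 and -0.3365 and Mmp2 was -0.0858 and -0.0875. Lox was 0.009157 without the filter and 0.4413 in limma-voom, and Mmp2 was -0.01101 with library totals. With the replicate block, Acta2 was 0.05251, Tagln 0.1095 and Pdgfrb -0.2375. With the block in DESeq2 they were 0.06576, 0.1252 and -0.233, and with the block and library totals 0.01925, 0.076 and -0.2694, with Mmp2 at -0.0193. With the block and without the pair numbered 2, Acta2 was 0.2211, Tagln 0.4844, Pdgfrb -0.661 and Mmp2 -0.03399, and without the pair numbered 3, Acta2 was 0.05857, Pdgfrb -0.1144 and Lox 0.2406. Without Nanog+E-cadherin- replicates 2 and 3 together, Thy1 was 0.4511, Acta2 2.91, Tagln 3.477, Mmp14 1.02 and Lox 2.838. Leaving out 1 library at a time, the values ran from -0.04532 to 0.5783 for Fn1, -0.5942 to 0.4283 for Acta2, -0.5998 to 0.7129 for Tagln, -0.8658 to 0.667 for Pdgfrb, -0.3165 to 0.3574 for Mmp2, -0.4493 to 0.3231 for Mmp14, -1.09 to 0.6685 for Lox and -0.5074 to 0.7018 for Sparc. The cause of these turns was not tested.

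By replicate number, leaving out 1 library at a time called 1531 to 7605 genes, against 2994, and 9 or 10 members. Thy1 was lost without Nanog+E-cadherin- replicate 1, Postn without Nanog+E-cadherin- replicate 3 (adjusted p = 0.130) and Postn with log2(TPM + 1) (adjusted p = 0.0890). Postn, Lox and Pdgfrb rest on the fewest counts, and 3 libraries per group limit every comparison between the populations.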
